A study of Drosophila melanogaster with 12 samples.

Results

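The homeobox genes of Drosophila melanogaster that lie outside the Hox complexes were examined for AGO2 and RNA polymerase II (Pol II) on chromatin. A list of 56 such genes was taken by name, and all 56 were found among the 13968 protein-coding genes annotated on dm6. The rule for the list uses no measured value, but the genes were chosen with earlier results of these data known. By the structure of the homeodomain, 23 belonged to the ANTP class, 17 to the PRD class, 7 to the TALE class, 5 to the LIM class, 3 to the SINE class and 1 to the CUT class. ChIP-seq, which sequences the DNA recovered with an antibody to a chromatin protein, was done in Kc167, an embryonic cell line labelled female, to ask where AGO2 associates with chromatin and whether LaminB affects this. The groups were AGO2 ChIP from cells given double-stranded RNA against LaminB (LaminB knockdown, 2 libraries), AGO2 ChIP from mock-treated cells (2 libraries), Pol II ChIP with antibody 8WG16 from mock-treated cells (2 libraries), and inputs from the LaminB knockdown (2) and mock cells (4). Mock cells were transfected without any double-stranded RNA, so the mock is not a control for the presence of an unrelated double-stranded RNA. The libraries of each ChIP were pooled before the final call, so each was represented by 1 list of intervals, no value carries a replicate error, and depth per library is unknown. The lists held 761 AGO2 peaks in LaminB knockdown cells, 4201 AGO2 peaks in mock cells and 5905 Pol II domains in mock cells. No expression was measured in these libraries, so the extent of the knockdown cannot be read from them. Of 9 genes typical of blood cells, the cell type Kc167 resembles, 7 carried a Pol II domain in the body, and NimC1 and He did not. Among protein-coding genes outside the homeobox list, 49.7% carried one.

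Homeobox genes encode transcription factors that bind DNA through the homeodomain. Outside the Hox complexes many of them set up segments, the head, the eye, the limbs, the heart and the identity of neurons and muscles, mostly in few cells and at defined stages. Many are silenced by Polycomb group proteins in cells that do not use them. AGO2 is the Argonaute protein of RNA interference in the cytoplasm and is also found on chromatin, LaminB is a filament protein of the nuclear lamina, and Pol II transcribes protein-coding genes.

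To show what DNA lay under AGO2 at these genes, the sequences around the summits of the 5 highest-ranked start peaks on X and 3R are given, 5′ to 3′ on the strand of the gene (dm6, counted from 1). Each is the 200 bases centred on the summit of a mock AGO2 peak, with bases of annotated UTRs left out, and capitals mark every GAGAG or its reverse complement CTCTC, the core of the element bound by GAGA factor. The windows lay upstream of the start of unc-4 (X:17768236-17768435, + strand), lbe (3R:21446538-21446649, − strand, 112 bases), Lim1 (X:8805843-8806042, − strand) and E5 (3R:13875077-13875276, − strand), and in an intron just upstream of the inner start of hth (3R:10614414-10614613, − strand).
unc-4: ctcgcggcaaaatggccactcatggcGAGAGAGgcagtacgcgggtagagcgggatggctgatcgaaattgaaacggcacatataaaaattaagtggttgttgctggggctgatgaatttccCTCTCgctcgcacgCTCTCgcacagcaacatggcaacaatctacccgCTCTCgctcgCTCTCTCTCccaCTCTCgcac
lbe: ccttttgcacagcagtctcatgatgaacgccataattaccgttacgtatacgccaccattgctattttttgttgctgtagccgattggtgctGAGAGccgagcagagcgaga
Lim1: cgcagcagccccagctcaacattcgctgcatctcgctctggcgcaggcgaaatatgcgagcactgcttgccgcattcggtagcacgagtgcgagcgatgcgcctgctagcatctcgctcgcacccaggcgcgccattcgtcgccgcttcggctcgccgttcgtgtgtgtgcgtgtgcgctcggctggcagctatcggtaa
E5: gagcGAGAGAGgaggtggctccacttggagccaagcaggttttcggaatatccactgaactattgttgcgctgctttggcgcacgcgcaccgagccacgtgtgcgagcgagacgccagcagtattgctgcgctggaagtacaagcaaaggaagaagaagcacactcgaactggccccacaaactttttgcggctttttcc
hth: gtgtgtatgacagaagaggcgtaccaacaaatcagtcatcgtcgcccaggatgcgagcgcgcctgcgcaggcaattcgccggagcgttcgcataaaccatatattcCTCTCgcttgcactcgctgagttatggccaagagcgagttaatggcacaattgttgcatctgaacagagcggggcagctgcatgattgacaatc
The unc-4 window held 9 overlapping matches on either strand, E5 held 2, lbe and hth held 1 each and Lim1 held none. The lbe and hth peaks overlapped a peak in LaminB knockdown cells, and the unc-4, Lim1 and E5 start peaks did not.

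In mock cells AGO2 was found at a transcript start of 26 of the 56 homeobox genes, or 46.4% (95% Wilson interval 34.0 to 59.3%). Among the 13912 other protein-coding genes it was found at 10.3%. Because long genes have more room for a peak, and the homeobox genes were long (477 to 132008 bp, median 10707 bp, against a median of 2158 bp in the others), the share was also taken among other genes of like length. This is the share of other genes within each of 10 length classes, weighted by the number of homeobox genes in each class, and it was 19.6%. The difference was thus 26.8 percentage points. Among 50 developmental regulators of transcription without a homeobox the share was 30.0%, a difference of 16.4 points. These regulators had a median length of 6062 bp, and their share was not matched for length. The difference from like-length genes was 16.7 points with the mock list shortened to its 761 top-ranked peaks. It was -2.23 points, with 8.93% of the homeobox genes, when only the 200 bp around each summit was required to cover the start, since the summits lay upstream of it (described further on). Over the gene body, mock AGO2 was found in 27 homeobox genes (48.2%, 35.7 to 61.0%), against 21.0% of other genes and 35.3% of like-length genes. For the body the difference of 12.9 points was 8.50 points with 1 gene kept per cluster of neighbours, and turned to -9.00 points with 200 bp summit windows, and to -6.00 points when the overlap had to reach 50% of the shorter interval. Within 10 kb of the body the share was 69.6% (39 genes, 56.7 to 80.1%), against 58.8% of other genes and 66.2% of like-length genes, a difference of 3.41 points (1.59 to 15.6 under other settings), and the like-length share lay inside the interval. Intervals cover counting error only, and genes of one family or cluster are not independent.

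In LaminB knockdown cells 4 of the 56 genes carried an AGO2 peak at a start, or 7.14% (2.81 to 17.0%), where other genes had 1.83% and like-length genes 5.08%. In the body there were 7 (12.5%, 6.19 to 23.6%), against 3.53% of other genes and 10.6% of like-length genes. Within 10 kb there were 12 (21.4%, 12.7 to 33.8%), against 12.1% of other genes and 19.1% of like-length genes. All 3 shares lay close to those of like-length genes, and each difference changed sign under at least 1 other setting. The knockdown list is shorter than the mock list, and shorter lists can follow from depth or enrichment, which was not tested.

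Pol II went the other way. A Pol II domain covered a start of 14 homeobox genes, or 25.0% (15.5 to 37.7%), against 45.9% of other genes and 59.1% of like-length genes. In the body there were 15 (26.8%, 17.0 to 39.6%), against 49.7% of other genes and 63.8% of like-length genes. Within 10 kb there were 32 (57.1%, 44.1 to 69.2%), against 78.4% of other genes and 85.9% of like-length genes. The like-length share lay above the interval of the homeobox genes at all 3 distances. Against the developmental regulators without a homeobox, not matched for length, the differences at starts and in bodies were -11.0 and -15.2 points. Within 10 kb the difference was 3.14 points. Against these regulators the shortfall of Pol II was thus smaller, and around the genes there was none.

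**Figure D1:**
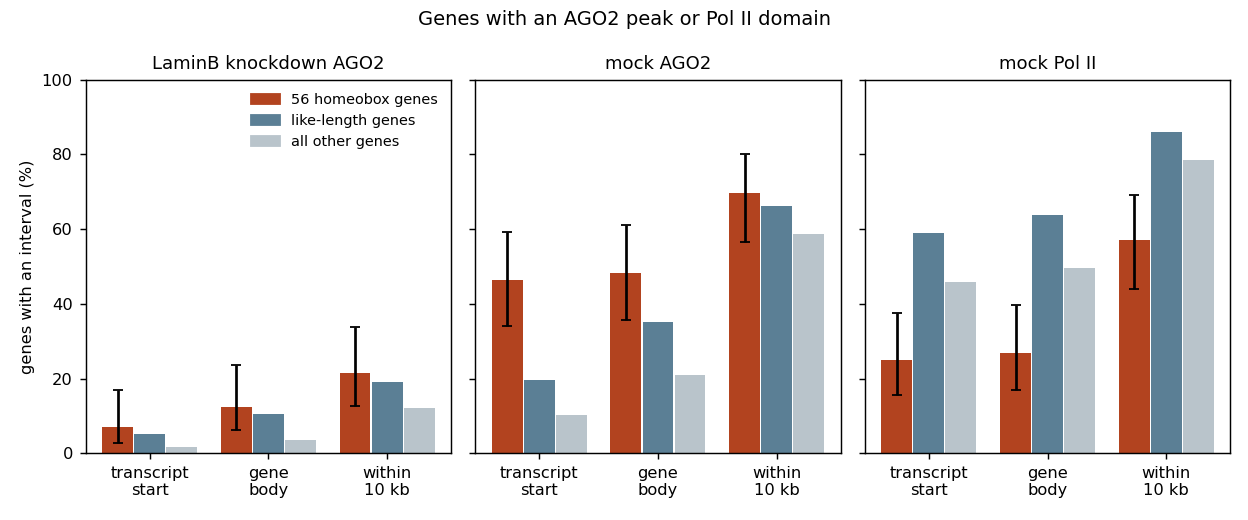
Share of genes (%, vertical axis) with an interval at a transcript start, in the gene body or within 10 kb, in each of the 3 lists. Bars show the 56 homeobox genes with 95% Wilson intervals, like-length genes and all other protein-coding genes; the homeobox genes stand higher for mock AGO2 at starts (46.4%, against 19.6% of like-length genes) and lower for Pol II at starts (25.0%, against 59.1%).

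By homeodomain class, mock AGO2 at a start was found in 11 of 23 ANTP class genes, 7 of 17 PRD class genes, 3 of 7 TALE class genes, 2 of 5 LIM class genes, 2 of 3 SINE class genes and the single CUT class gene. Pol II in the body was found in 3 ANTP, 3 PRD, 5 TALE, 2 LIM, 1 SINE and 1 CUT class genes. The TALE class, with 5 of 7, had the highest Pol II count for its size among the classes of more than 1 gene. The like-length share for all 56 genes was 63.8%, and the count is small. It includes exd and achi, whose domains also covered starts of neighbours. Split by length, mock AGO2 at a start was found in 6 of the 19 shortest genes (9.85% of like-length genes), 8 of the 18 middle genes (20.9%) and 12 of the 19 longest genes (28.0%), so the difference was present in each of the 3 length groups.

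**Figure D2:**
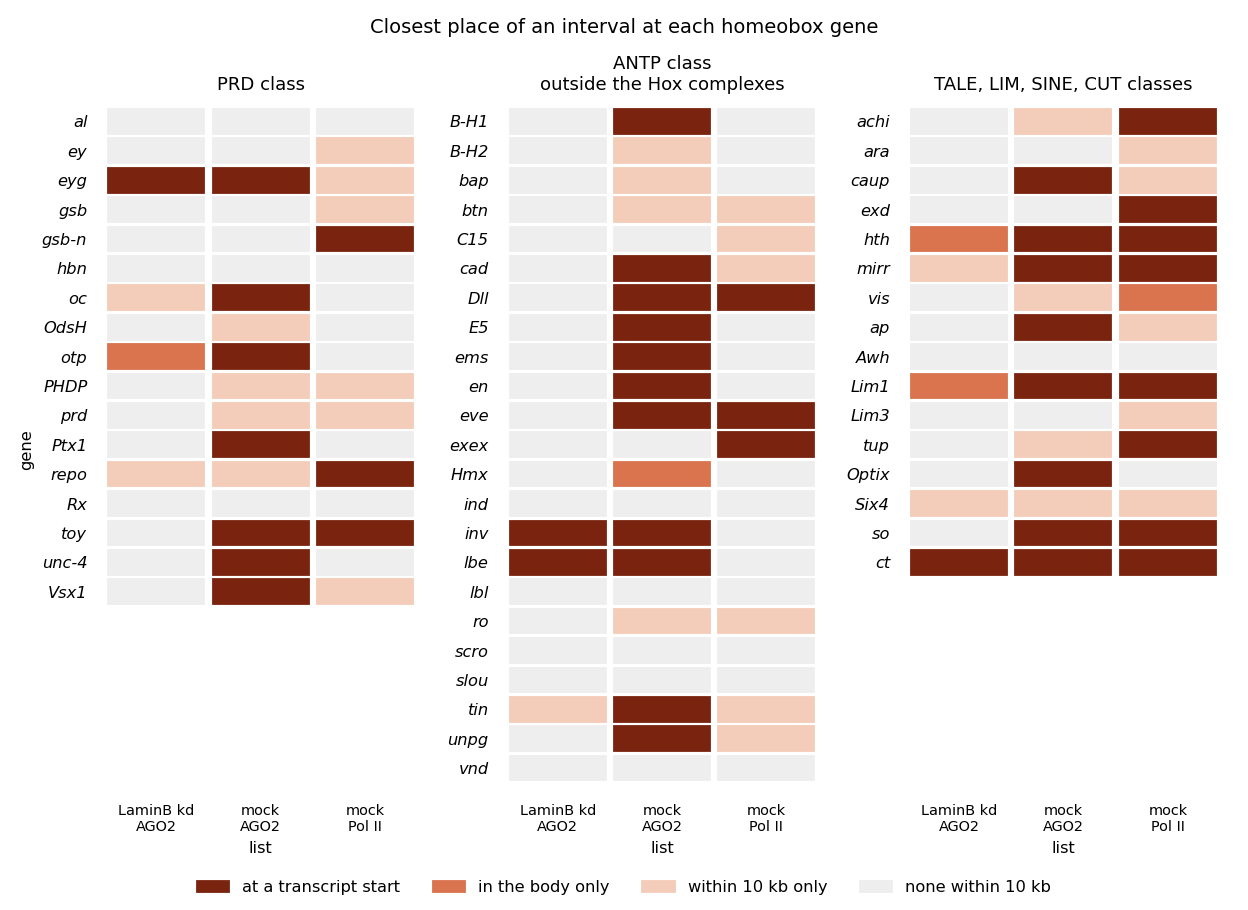
Place of the interval nearest a start for each of the 56 homeobox genes, by class, with 1 tile for each list (LaminB knockdown AGO2, mock AGO2, mock Pol II). The darkest tiles mark a transcript start (4, 26 and 14 genes in the 3 lists), the next the body only, the pale ones within 10 kb only, and grey none within 10 kb.

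The 26 genes with mock AGO2 at a start were mostly genes without a called Pol II domain. Without Pol II means here that no domain was called, and because depth is unknown, weaker Pol II may have gone uncalled. In 18 of them, or 69.2% (50.0 to 83.5%), no Pol II domain lay anywhere in the gene body. Among the 1432 other protein-coding genes with mock AGO2 at a start, this held for 41, or 2.86%, and the like-length share was 3.54%. Read in the other direction, 18 of the 41 homeobox genes without Pol II in the body carried AGO2 at a start (43.9%, 29.9 to 59.0%), against 41 of 7003 other genes without Pol II, or 0.585%, and 2.06% at like length. Among genes with Pol II in the body, 8 of 15 homeobox genes carried AGO2 at a start (53.3%, 30.1 to 75.2%), against 1391 of 6909 other genes (20.1%) and 29.9% at like length. With the requirement widened to no Pol II domain within 10 kb, 11 of the 26 homeobox genes (42.3%) and 15 of the 1432 others (1.05%) remained. The 56 genes therefore held 18 of the 59 protein-coding genes in the genome with AGO2 at a start and no Pol II in the body, or 30.5%. This set was examined after the counts had been seen.

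**Figure D3:**
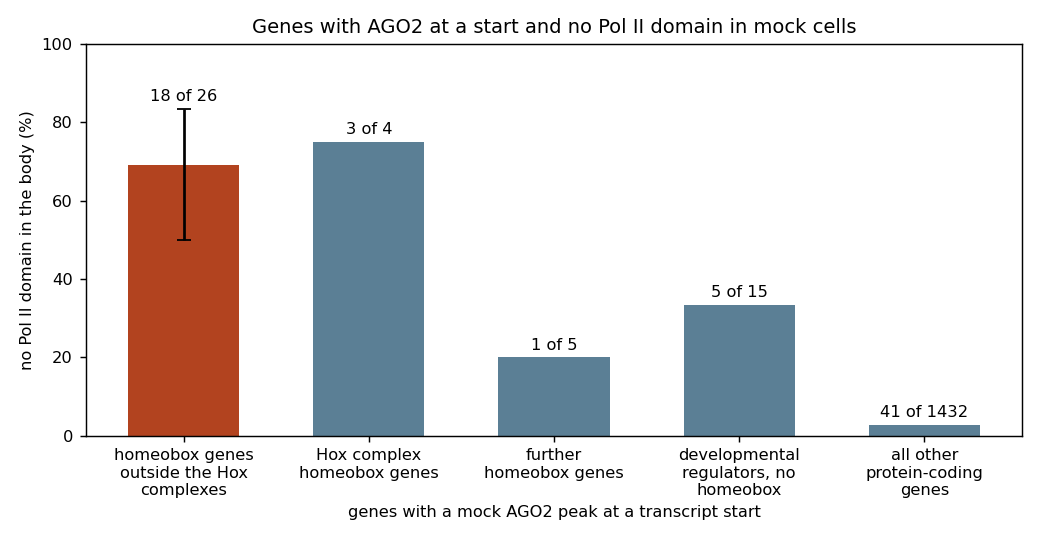
Share (%, vertical axis) of genes with a mock AGO2 peak at a transcript start that had no Pol II domain in the body, with the counts above each bar and a 95% Wilson interval for the homeobox genes outside the Hox complexes. It was 18 of 26 in these, 3 of 4 in the Hox complex genes, 1 of 5 in further homeobox genes, 5 of 15 in developmental regulators without a homeobox and 41 of 1432 in all other protein-coding genes, which include those 3 lists.

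Start peaks without Pol II had the higher median strength. Strength is given here as the −log10 of the p-value that the peak caller gave, which grows with depth and is comparable only within a list. It is also given as fold enrichment over local background. Over the 18 genes without Pol II the start peaks had a median −log10 p of 44.9 (18.4 to 82.1) and a median width of 635 bp. Over the 8 genes with Pol II the median was 24.2 (16.5 to 59.7) and the width 480 bp, and the ranges overlapped widely. Among the other protein-coding genes, the strongest start peak of the 41 genes without Pol II had a median of 24.0 and that of the 1391 genes with Pol II a median of 25.5. All 26 homeobox start peaks together had a median of 36.0, against 25.4 for the 1443 mock peaks at any protein-coding start, and 12 of the 26 (46.2%) were in the top 10% of the list, against 14.8% of start peaks in general. A Pol II domain overlapped 8 of the 26 start peaks (30.8%, 16.5 to 50.0%), against 93.5% of the 1443.

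**Figure D4:**
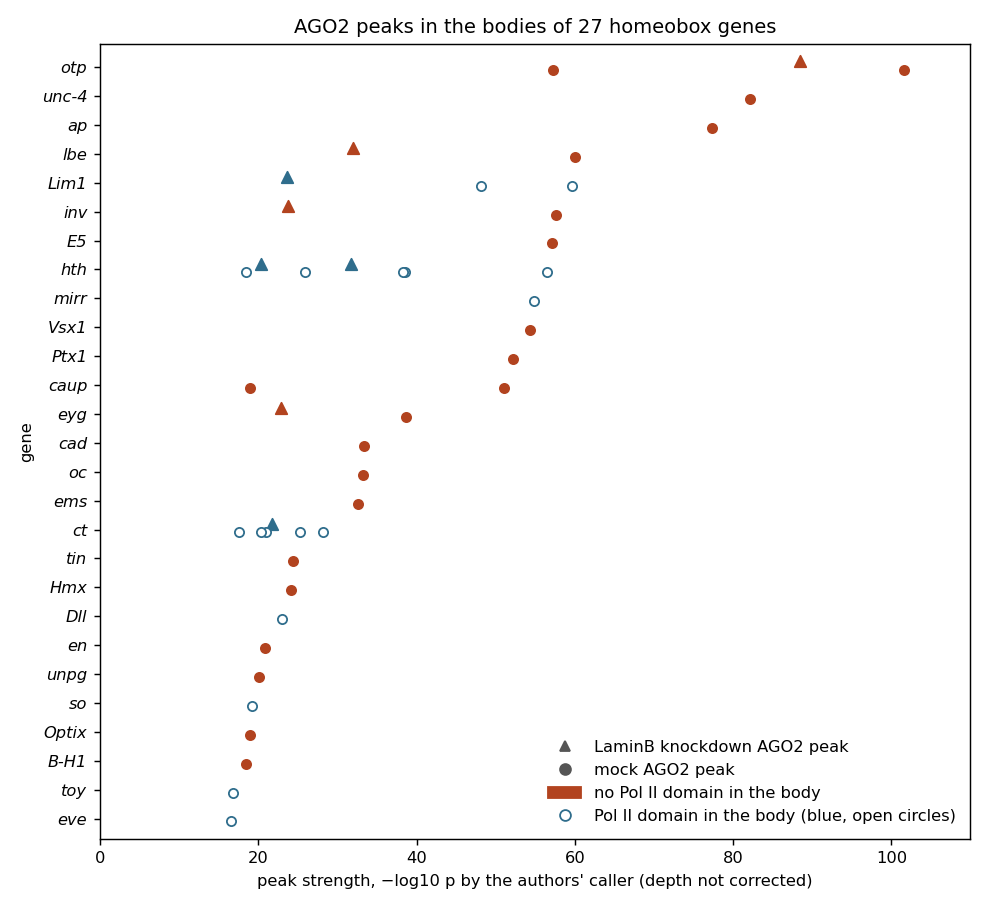
Strength (−log10 p, horizontal axis) of every AGO2 peak in the bodies of the 27 homeobox genes that had one, genes ordered by their strongest mock peak. Triangles are LaminB knockdown peaks and circles mock peaks, blue with open circles where the body held a Pol II domain; the strongest, at otp (101.6), unc-4 (82.1) and ap (77.4), had none.

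Among genes of the head and nervous system, the orthopedia gene otp, which acts in hindgut and brain, carried the strongest AGO2 peak of all 56 genes. This mock peak lay in coding sequence near the 3′ end, 12970 bp downstream of the nearest, inner start (2R:20884421-20884853, 433 bp, −log10 p 101.6, fold 6.24, rank 14 of 4201). A second otp peak of 611 bp covered the start (2R:20903373-20903983, −log10 p 57.2, fold 5.02, rank 182, summit 221 bp upstream). At unc-4, a regulator of neuron identity, 1 peak of 813 bp covered the start (X:17767888-17768700, −log10 p 82.1, fold 6.79, rank 45, summit 233 bp upstream). The nearest Pol II domain was 47.0 kb from otp and 28.2 kb from unc-4. At Vsx1, a gene of the optic lobe, the start peak was 408 bp wide (X:5593911-5594318, −log10 p 54.4, fold 5.80, rank 216, summit 197 bp upstream). At Ptx1, a relative of the vertebrate Pitx genes, it was 647 bp wide (3R:30912271-30912917, −log10 p 52.2, fold 4.79, rank 246, summit 221 bp upstream).

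The head gap genes oc (orthodenticle) and ems, which pattern the anterior head and brain, had start peaks within the strongest 25% of the mock list. The oc peak was 741 bp wide (X:8650480-8651220, −log10 p 33.2, fold 3.12, rank 830, summit 336 bp upstream), and a stronger peak lay beyond the 3′ end (X:8624767-8625243, −log10 p 62.3, rank 130). The ems peak was 483 bp wide (3R:13901478-13901960, −log10 p 32.6, fold 3.65, rank 854, summit 156 bp upstream). Its neighbour E5, a related homeobox gene less than 50 kb away, had the stronger peak of the pair (3R:13874640-13875462, 823 bp, −log10 p 57.1, fold 4.52, rank 183, summit 261 bp upstream). At unpg, a gene of the embryonic nervous system, the peak was wide and weak (2R:9194791-9195859, 1069 bp, −log10 p 20.1, fold 3.16, rank 2437, summit 215 bp upstream). Hmx, expressed in the brain, was the one gene with a body peak and none at its start (3R:17566907-17567499, 593 bp, −log10 p 24.2, fold 3.82, rank 1638, in coding sequence 8209 bp inside). None of these 5 genes had Pol II in the body.

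Among segmentation genes, the segment polarity gene en and its paralogue inv lie side by side and both carried AGO2 without Pol II. The inv peak covered the 5′ UTR (2R:11475397-11475926, 530 bp, −log10 p 57.6, fold 5.45, rank 175, summit 112 bp upstream of the nearest start). The en start peak was weaker (2R:11527777-11528515, 739 bp, −log10 p 20.9, fold 2.74, rank 2230, summit 112 bp upstream), with another 1464 bp upstream (−log10 p 26.9). At cad, which patterns the posterior of the embryo, the start peak was 441 bp wide (2L:20770323-20770763, −log10 p 33.4, fold 3.43, rank 810, summit 222 bp upstream). The pair-rule gene eve had the weakest start peak of the 26 (2R:9978822-9979846, 1025 bp, −log10 p 16.5, fold 3.05, rank 3680, summit 150 bp upstream), together with Pol II, and it was the one start peak that also covered the start of another gene, the antisense RNA gene asRNA:CR43948. The pair-rule gene prd, the segment polarity gene gsb and its neighbour gsb-n had no AGO2 peak in the body.

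Of the eye genes, the start peaks of so and toy came with Pol II and those of Optix and eyg without. At so, a SINE class gene needed for the eye, the peak was 579 bp wide (2R:7419123-7419701, −log10 p 19.2, fold 3.19, rank 2667, summit 65 bp upstream). At toy, one of the fly Pax6 genes, it was 383 bp wide (4:989518-989900, −log10 p 16.8, fold 3.22, rank 3583, summit 65 bp upstream). At Optix it was 836 bp wide (2R:8030581-8031416, −log10 p 18.9, fold 2.61, rank 2802, summit 143 bp upstream). The strongest of the 4 was that of eyg, which promotes growth of the eye (3L:12467944-12468364, 421 bp, −log10 p 38.7, fold 4.83, rank 561, summit 178 bp upstream). The other Pax6 gene, ey, had no AGO2 peak nearer than 169 kb, and ro, which acts in photoreceptors, had none in the body.

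The 3 longest genes, hth, ct and Lim1, carried both AGO2 and Pol II at a start. At hth, whose product carries its partner Exd into the nucleus, 5 mock peaks lay in the 132008 bp body, of which the strongest covered an inner start (3R:10614251-10614745, 495 bp, −log10 p 56.5, fold 4.67, rank 189, summit 238 bp upstream) and overlapped a Pol II domain of 166 bp. The other 4 lay in introns with −log10 p of 18.5, 25.9, 38.3 and 38.5. At ct, which specifies sense organs and the wing margin, there were also 5, of which 1 covered a start with Pol II (X:7608252-7608682, 431 bp, −log10 p 25.3, fold 3.32, rank 1497, summit 116 bp downstream). At Lim1, a gene of the antenna and leg, the start peak overlapped Pol II (X:8805670-8806124, 455 bp, −log10 p 59.7, fold 4.91, rank 159, summit 139 bp upstream), and a second peak lay in the 3′ UTR (X:8757844-8758303, 460 bp, −log10 p 48.2, fold 5.43, rank 305). At Dll, the selector of distal limbs, 1 peak covered the start together with Pol II (2R:24814464-24814929, 466 bp, −log10 p 23.0, fold 3.73, rank 1800, summit 57 bp upstream).

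By contrast ap, the selector of the dorsal wing, carried the third strongest body peak of all without Pol II in the body (2R:5726708-5727330, 623 bp, −log10 p 77.4, fold 5.63, rank 58, summit 140 bp upstream of an inner start). B-H1, one of the paired Bar genes of eye and bristles, had a weak peak whose summit lay in coding sequence (X:17397135-17398004, 870 bp, −log10 p 18.4, fold 3.36, rank 2955, summit 307 bp downstream), and its twin B-H2 had none in the body. The Iroquois genes mirr, ara and caup, which pattern the eye and body wall, differed among themselves. The mirr peak was the widest of the 26 and overlapped Pol II (3L:12692227-12694117, 1891 bp, −log10 p 54.9, fold 4.45, rank 204, summit 608 bp upstream). At caup a start peak (3L:12609268-12609856, 589 bp, −log10 p 51.1, fold 5.20, rank 269, summit 171 bp upstream) and a weaker one 854 bp downstream (−log10 p 19.0) lay without Pol II, and ara had neither mark in the body.

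Of the mesoderm genes, tin, needed for the heart, and lbe, one of the ladybird genes of heart and muscle, carried AGO2 at a start without Pol II. The lbe peak was strong and wide (3R:21445799-21446839, 1041 bp, −log10 p 60.0, fold 5.28, rank 156, summit 13 bp upstream). The tin peak was 481 bp wide (3R:21378818-21379298, −log10 p 24.4, fold 3.38, rank 1608, summit 26 bp downstream). In the same cluster of 4 genes, bap, which specifies visceral mesoderm, and lbl, the twin of lbe, had no interval in the body, and the peak counted within 10 kb of bap was that at the tin start. In all, 21 of the 56 genes lay within 50 kb of another, in 9 clusters. In mock AGO2 at a start, partners differed for unc-4 and OdsH, otp against Rx and hbn, ara and caup, and lbe and lbl. They agreed in the other clusters, with a start peak in both genes for inv and en and for E5 and ems. Neither gene had one for vis and achi, gsb-n and gsb, or C15 and slou. With 1 gene kept per cluster (44 genes) the difference from like-length genes at starts was 22.3 points.

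Over all 38 mock peaks in the bodies of the homeobox genes, the median −log10 p was 32.9 and the median fold 3.84, against 21.4 and 3.18 over all 4201 mock peaks. Of the 38, 20 (52.6%) were in the strongest 25% of the list and 14 (36.8%) in the strongest 10%. A Pol II domain overlapped 8 of the 38 (21.1%, 11.1 to 36.3%), against 63.0% of all mock peaks. By summit, 20 lay just outside the gene, 9 in introns, 4 in the 5′ UTR, 4 in coding sequence and 1 in the 3′ UTR. Most genes had a single peak (22 genes), 3 had 2, and ct and hth had 5 each.

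The summits lay upstream of the transcript start. For 23 of the 26 homeobox genes with mock AGO2 at a start (88.5%) the summit was upstream, at a median of 153 bp before the nearest start of the gene (from 608 bp upstream at mirr to 307 bp downstream at B-H1). In the 1432 other genes it was upstream in 44.8%, with a median 22 bp downstream. The summit fell 100 to 300 bp upstream in 17 of the 26 (65.4%), against 15.6% of the other genes. The 18 homeobox genes without Pol II had 14 summits in this range (77.8%) and the 8 with Pol II had 3 (37.5%), against 41.5% of the 41 other genes without Pol II and 14.8% of the 1391 with it. Over the whole upstream side, the shares of the homeobox genes without and with Pol II were close (16 of 18 and 7 of 8). The window of 100 to 300 bp was chosen after the positions had been seen.

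**Figure D5:**
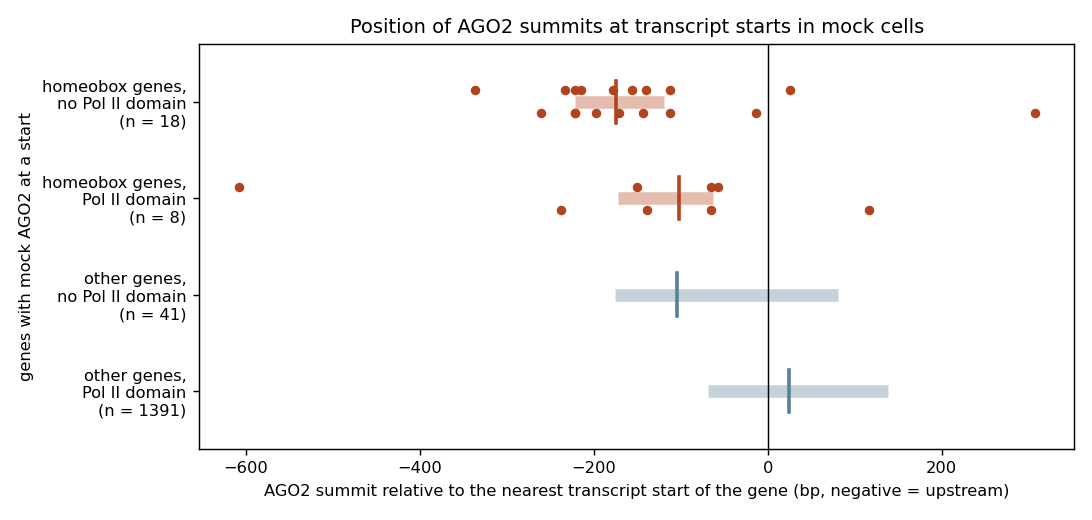
Distance (bp, horizontal axis, negative upstream) of the mock AGO2 summit from the nearest transcript start of the gene, for homeobox genes and other genes without and with a Pol II domain in the body. Points are single homeobox genes, thick bars span the middle 50% of genes and vertical lines are medians; the 18 homeobox genes without Pol II centre 174 bp upstream and the 1391 other genes with Pol II 24 bp downstream.

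In the LaminB knockdown list, 8 AGO2 peaks lay in the bodies of 7 homeobox genes, namely inv, ct, otp, Lim1, hth, lbe and eyg, all of which also had a mock peak in the body. The strongest was again the coding peak of otp, which ranked 5 of 761 in LaminB knockdown cells (2R:20884474-20884844, 371 bp, −log10 p 88.5, fold 6.46) and 14 of 4201 in mock cells. At starts, the knockdown peaks were those of lbe (3R:21446388-21446797, 410 bp, −log10 p 32.0, fold 3.59, rank 202), inv (2R:11475394-11475755, 362 bp, −log10 p 23.7, fold 3.07, rank 491), eyg (3L:12467992-12468354, 363 bp, −log10 p 22.9, fold 3.50, rank 540) and ct (X:7608004-7608699, 696 bp, −log10 p 21.8, fold 2.89, rank 608). Their summits lay 54 bp upstream at lbe, 99 bp upstream at inv, 145 bp upstream at eyg and 37 bp downstream at ct. None of these 4 was in the strongest 25% of the knockdown list.

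Besides that of otp, the knockdown peaks that covered no start were at Lim1 and hth. At Lim1 the peak was in the 3′ UTR (X:8757845-8758086, 242 bp, −log10 p 23.6, fold 3.47, rank 498), while the stronger mock start peak of the gene had no knockdown peak within 47583 bp. At hth, the body peak next to the inner start was found (3R:10614340-10614673, 334 bp, −log10 p 31.7, fold 3.68, rank 207), and an intron held the single knockdown peak that overlapped no mock peak (3R:10535817-10536107, 291 bp, −log10 p 20.3, fold 3.74, rank 727). At oc a knockdown peak lay 177 bp outside the gene and overlapped the mock start peak (X:8650859-8651155, 297 bp, −log10 p 22.2, fold 2.87, rank 586).

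Counted by mock peaks, 8 of the 38 in the bodies were found again in LaminB knockdown cells (21.1%, 11.1 to 36.3%), against 15.2% of all 4201. Stronger peaks were found again more often in the whole list, so the counts were also taken at like rank. Among the 761 top-ranked mock peaks, 6 of 17 peaks in homeobox genes (35.3%) and 330 of all 761 (43.4%) were found again. In the top 10% of the mock list the counts were 5 of 14 (35.7%, 16.3 to 61.2%) and 231 of 420 (55.0%). The share of all peaks thus lay inside the interval of the homeobox peaks. The strongest mock peaks with no knockdown counterpart were those of unc-4 (rank 45, nearest knockdown peak 44667 bp away) and ap (rank 58, 55338 bp away).

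Pol II was found in the body of 15 homeobox genes, 8 of them with mock AGO2 (eve, ct, Dll, Lim1, mirr, hth, so and toy) and 7 without (repo, tup, exd, achi, vis, exex and gsb-n). Across other genes, 2719 had both marks in the body, 4190 Pol II only and 197 mock AGO2 only. The 17 Pol II domains in the bodies were short, 166 to 982 bp with a median of 322 bp, and the 15 at starts had a median of 333 bp, against 718 bp for the 4972 domains at any protein-coding start. The 2 longest, of 963 bp at exd, the Hox cofactor, and 982 bp at achi, a TGIF relative, also covered starts of neighbours (CG46312 and eIF5 at exd, CG13151 at achi). Restricted to domains of 300 bp or more, 16.1% of the homeobox genes and 55.6% of like-length genes had Pol II at a start.

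Of the 7 genes with Pol II alone, repo specifies glia, tup (islet) motor neurons and heart, exex motor neurons, gsb-n the nervous system, and vis is the twin of achi. At tup an AGO2 peak began 98 bp outside the gene (2L:18881360-18882174, −log10 p 37.0, fold 4.50), next to a Pol II domain of 322 bp over the start. At repo the nearest AGO2 peaks lay in the neighbouring gene 14-3-3epsilon. The nearest mock AGO2 peak to exd was 89.4 kb away.

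A set of 22 homeobox genes had no interval of any list in the body, namely Rx, hbn, al, OdsH, PHDP, Lim3, Awh, ara, Six4, bap, vnd, scro, lbl, B-H2, C15, slou, btn, ind, ro, ey, gsb and prd. This was 39.3% of the 56 (27.6 to 52.4%), against 48.9% of other genes and 33.4% of like-length genes. Within 10 kb, 9 of them still had none (16.1%, 8.69 to 27.8%), against 19.7% of other genes and 12.1% of like-length genes. These were Rx, hbn and scro of the brain, vnd and ind of the ventral nerve cord, al of the limb tips, lbl and slou of muscle identity, and Awh of the imaginal histoblasts. The most remote was scro, in the proximal part of 3L, with the nearest LaminB knockdown AGO2 peak 766 kb, the nearest mock AGO2 peak 472 kb and the nearest Pol II domain 109 kb away. Of the rest, Six4, which acts in muscle and gonad, and btn, of mesodermal cells in the midline, lay among genes with AGO2 and Pol II, and their nearby peaks were in or at the starts of those genes (CG11396 and Pcif1 by Six4, Dph5 and CG6937 by btn). The same held for PHDP (DCP1), prd (Pex19 and CG6712) and ro (His2Av, SPARC and ms(3)K81). At OdsH, known for hybrid male sterility, a peak in no other gene ended 562 bp from the body (X:17789439-17790447, −log10 p 26.6). Lim3, of motor neurons, C15, of the leg tip, ara, ey and gsb had Pol II but no AGO2 within 10 kb. B-H2, OdsH and bap had AGO2 but no Pol II within 10 kb.

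The 29 genes without mock AGO2 in the body had their nearest mock peak 0.0980 kb (tup) to 472 kb (scro) away, with a median of 12.8 kb. The 49 genes without knockdown AGO2 had theirs 0.177 kb (oc) to 766 kb (scro) away, with a median of 68.9 kb, and the 41 without Pol II had a domain 0.391 kb (ro) to 109 kb (scro) away, with a median of 13.1 kb. By arm, mock AGO2 at a start was found in 9 of 16 genes on 2R, 6 of 14 on 3R, 6 of 10 on X, 3 of 9 on 3L, 1 of 5 on 2L and 1 of 2 on chromosome 4.

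Short sequences were searched on both strands in the 200 bp around each summit. GAGAG was found in 19 of 26 homeobox start peaks (73.1%, 53.9 to 86.3%), against 45.7% of the 1443 mock peaks at protein-coding starts, and in 25 of 38 body peaks (65.8%, 49.9 to 78.8%), against 39.9% of all mock peaks. In LaminB knockdown cells it was found in 7 of the 8 peaks in homeobox genes, against 68.1% of all 761. GCCAT, the core of the element bound by the Polycomb recruiter Pho, was found in 57.9% of the 38 (42.2 to 72.1%), against 36.3% of all mock peaks. TAATTA, a homeodomain core, was found in 2 of the 38 (5.26%), against 1.71%, and TATCGATA, which contains the core of the DREF element, in none, against 0.547%. None of the 4 words contains another, and overlapping matches were counted. Median GC content was 55.5% in the 38 windows and 54.5% in all. These are matches of letters and not sites, and none of these shares was matched for peak strength. The homeobox start peaks had a higher median −log10 p than all mock peaks at protein-coding starts (36.0 against 25.4).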

How the data were processed

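Before deposit, the authors used cutadapt 1.10 to trim, Bowtie2 2.2.8 to align to dm6, SAMtools 1.3.1 to filter by mapping quality and Picard 2.5.0 to remove duplicates. AGO2 peaks were called with MACS2 2.1.1.20160309 at a lenient p-value on pooled replicates against pooled input, and the best-ranked were retained, their number set by the irreproducible discovery rate between pooled pseudoreplicates. Pol II domains were called in broad mode, filtered to those also called in 1 or more single replicates and merged with bedtools 2.25.0. The deposited AGO2 lists give a fold enrichment, which is a ratio of ChIP to local background, and the −log10 of the authors' p-value. The Pol II list gives positions only. Columns have no header and were read by the caller's standard layout. The number of peaks kept depends on depth and enrichment, neither of which the lists hold.

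An overlap was 1 bp or more. Genes, starts and bodies came from Ensembl 115 (build 6.54), a later annotation on the same assembly. Like-length shares used 10 length classes. Windows of 200 bp around summits were read from the RefSeq copy of dm6. No test was run, because each list pools its replicates. The genes and comparison lists were chosen with earlier results of these data known. Every gene of the set was named, and full values were given for those with AGO2 at a start in mock cells, AGO2 in the body in LaminB knockdown cells, or 1 of the 12 strongest mock body peaks. Overlap and distance were checked on simulated intervals. Computations used scipy 1.17.1, numpy 2.4.6 and Python 3.11.15, and figures matplotlib 3.10.9.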

Additional observations from a re-analysis of the deposited data

How the results depend on the processing

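No paired analysis was possible because each ChIP has only 1 list made from pooled libraries, which also means that leaving out a replicate could not be tried. Differences are in percentage points, homeobox genes minus like-length genes, and the result on mock peaks found again in the LaminB knockdown is a plain share. Of 82 alternatives to 11 results, 76 planned and 6 added after the data were seen, 67 kept the sign of the value and stayed within its counting interval. Set against all mock peaks, that share was higher over the whole list (21.1%, against 15.2%) and lower among the 761 top-ranked peaks (35.3%, against 43.4%). With summits plus and minus 100 bp, mock AGO2 gave -2.23 at starts and -9.00 in bodies. With 50% overlap, bodies gave -2.60 for LaminB knockdown and -6.00 for mock AGO2. The stronger 50% of each list gave -0.872, -0.597 and -1.79 for LaminB knockdown AGO2 at starts, in bodies and within 10 kb. With 1 gene per cluster, knockdown bodies gave -0.677, and within 20 kb the knockdown gave -0.0340. Set against developmental regulators without a homeobox, whose shares were not matched for length, mock AGO2 within 10 kb gave 15.6. Against the same regulators Pol II gave -11.0 at starts, -15.2 in bodies and 3.14 within 10 kb. For AGO2 at a start without Pol II in the body (difference 65.7), no Pol II within 10 kb gave 40.6 and summits plus and minus 100 bp gave 38.6, and all 6 added alternatives kept its direction. The cause of these changes was not tested, except that fewer starts are reached when the summit lies upstream and the interval is shortened. Depth is unknown, so a missing interval is one not called at this depth.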

Other observations

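Beside the 18 homeobox genes, 41 other protein-coding genes had mock AGO2 at a start and no Pol II domain in the body, and 9 of them were in the comparison lists. These were the Hox genes lab, Scr and abd-A, the POU homeobox gene vvl, and the developmental regulators opa, bi, grn, vg and dac. The strongest start peaks among the 41 were those of opa (−log10 p 94.8, rank 25 of 4201), bi (83.9, rank 42) and grn (64.6, rank 108), all 3 genes for transcription factors. Only bi and vg of the 41 also had an AGO2 peak at a start in LaminB knockdown cells. The other 32 were in no list, among them disco-r, ss, Poxm, TfAP-2 and retn, which also encode transcription factors and were picked out after the names were seen, and genes of other kinds such as RpS5b and Cyp18a1.

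For the comparison lists, mock AGO2 at a start was found in 4 of the 12 Hox complex genes (33.3%) and 5 of 17 further homeobox genes (29.4%). It was found in 15 of 50 developmental regulators without a homeobox (30.0%). The like-length shares were 20.0%, 23.0% and 16.9%. The Hox complex and further homeobox lists are small, so their differences rest on few genes. Pol II in the body was found in 16.7%, 35.3% and 42.0% of the same lists, each below its like-length share of 59.9%, 67.1% and 61.2%. LaminB knockdown AGO2 in the body was found in 33.3%, 29.4% and 10.0%, against like-length shares of 12.4%, 13.7% and 8.15%. The differences between the lists were not tested.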
